A study of Homo sapiens with 10 samples.

Results

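The TNF superfamily comprises the ligands related to tumour necrosis factor and the receptors that bind them. Members were taken as all protein-coding genes whose GENCODE symbol starts with TNFRSF (receptors) or TNFSF (ligands), plus TNF, LTA, LTB, CD40 and CD27. This gave 38 of the 19629 protein-coding genes in the count tables, in which 16143 genes of all kinds were tested. With expression defined as a mean of 1 or more CPM (counts per 1000000 counts of the scaled library size) over the 10 libraries, 14 of the 38 members were expressed in U2OS cells, and for TNF, LTA, LTB, TNFRSF14, TNFRSF6B and TNFSF12-TNFSF13 a count of 0 could not be read as a level. Polyadenylated RNA of U2OS cells, a human osteosarcoma line, was sequenced from stranded libraries 48 h after knockdown with pooled siRNAs. The control knockdown (siCtrl) and the knockdown of the RNA helicase DDX41 (siDDX41) had 5 libraries each, with 21807041 to 24896398 counted reads per library. The labels number the replicates but do not say that they are separate cultures, so p-values measure the spread between these libraries, which may be technical.

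Most ligands of the superfamily are trimeric membrane proteins that can be shed by proteases, and they cluster their receptors on the surface of the same or a neighbouring cell. Receptors with a death domain recruit TRADD or FADD and can lead to caspase activation or to NF-kB signaling, whereas receptors without one bind TRAF adaptors, which lead to the canonical or the non-canonical NF-kB pathway. Decoy and soluble receptors bind ligand without signaling, and osteoprotegerin (TNFRSF11B), which captures the osteoclast factor RANKL (TNFSF11), is known as a product of the osteoblast lineage.

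DDX41 itself (ENSG00000183258.11, chr5:177511577-177516961, minus strand of GRCh38) was measured at 49.1, 49.4, 47.3, 47.1 and 50.4 CPM in siCtrl replicates 1 to 5 and at 11.4, 13.7, 12.4, 11.2 and 12.3 CPM in siDDX41 replicates 1 to 5. Each siDDX41 library lay below each siCtrl library. The log2 fold change was -1.99 (SE 0.0491), with adjusted p = 4.47e-24 (edgeR quasi-likelihood test, Benjamini-Hochberg adjustment) and p = 0.00794 in an exact two-sided permutation test on log2 CPM, the smallest p that 5 against 5 libraries allow. Of the 38 members, 17 passed the filter on low counts and were tested, and at an adjusted p under 0.01 relative to siCtrl 4 were upregulated, 5 downregulated and 8 not called. Of the 5 downregulated members, TNFSF13 and TNFSF4 passed the filter through the siCtrl libraries, and 3 were downregulated when 1 CPM was required in 5 libraries. Among all tested genes 30.3% were upregulated and 32.1% downregulated. Of the 14 expressed members, 4 rose (TNFSF15, TNFRSF12A, TNFRSF1A and TNFSF9), 3 fell (TNFRSF13C, TNFRSF19 and TNFRSF11B) and 7 were not called, beside 32.9% upregulated and 33.7% downregulated among the 14160 tested genes with a mean of 1 or more CPM. The median log2 fold change of the 14 members was -0.0027 and their median absolute log2 fold change 0.26, against 0.0044 and 0.26 over those 14160 genes. These counts are close to the background in number and in size. The members changed in both directions, and the values are relative to the total RNA of each library. In bulk RNA, fewer cells that express a gene and less RNA per cell cannot be told apart.

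**Figure D1:**
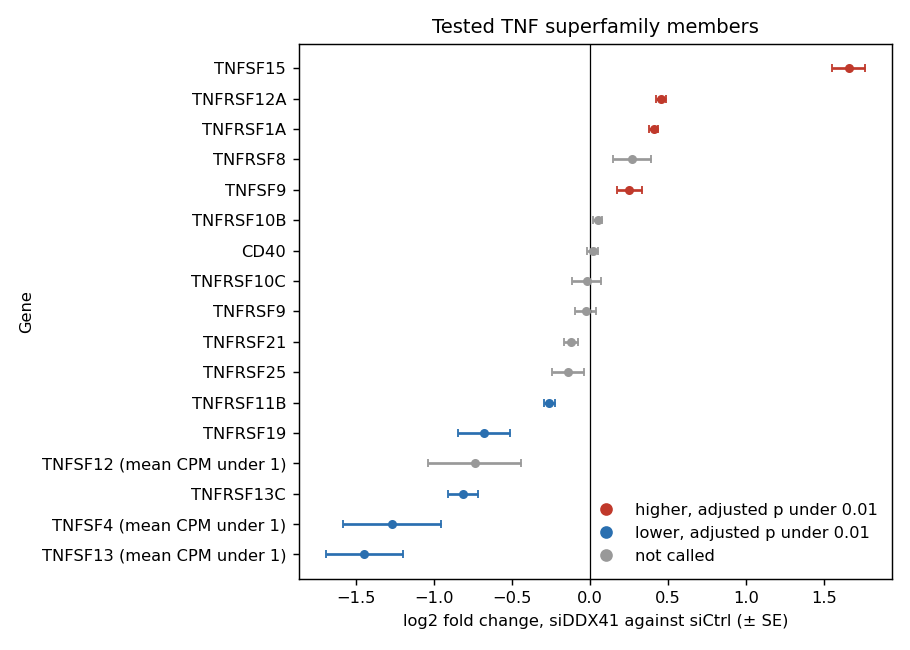
The log2 fold change of siDDX41 against siCtrl (horizontal axis, bars ± SE, 5 libraries per group) is shown for the 17 members that passed the filter on low counts. TNFSF15 lies farthest to the right at 1.66, and 3 ligands with a mean under 1 CPM are marked.

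The ligands were mostly at low levels. Of 15 ligand genes, TNFSF9 and TNFSF15 were expressed, TNFSF13, TNFSF12 and TNFSF4 were tested at a mean of 0.487 to 0.692 CPM, 5 had 3 to 15 reads over all 10 libraries, and 5 were listed at 0. TNFSF15 (ENSG00000181634.7, chr9:114784652-114806039, minus strand) encodes TL1A, the ligand of the death domain receptor DR3 (TNFRSF25). It was measured at 2.33, 3.02, 1.93, 2.65 and 1.96 CPM in the siCtrl libraries and at 6.85, 8.29, 6.97, 7.36 and 8.12 CPM in the siDDX41 libraries, in the order of replicates 1 to 5. The lowest siDDX41 library was above the highest siCtrl library by more than the spread within either group. TNFSF15 rose from 2.38 ± 0.464 to 7.52 ± 0.658 CPM (SD, n = 5 each), with a log2 fold change of 1.66 (SE 0.107, adjusted p = 2.77e-14, edgeR quasi-likelihood test, Benjamini-Hochberg adjustment). Its neighbour TNFSF8, separated from it by 87.3 kb on chromosome 9, had 3 reads in all.

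TNFSF9 (ENSG00000125657.4, chr19:6531026-6535924, plus strand) encodes the ligand of 4-1BB (TNFRSF9) and had the highest level per length of the expressed or tested ligands chosen by symbol, 6.53 ± 0.888 CPM per kb of exon in siCtrl (SD, n = 5), while CD70, a ligand under another symbol, had 15.8 ± 1.29. The siCtrl libraries held 11.0, 11.2, 8.19, 10.9 and 12.02 CPM, and the siDDX41 libraries 13.9, 12.3, 12.8, 11.5 and 13.1 CPM. The groups overlapped, since siDDX41 replicate 4 lay below siCtrl replicate 5, and siCtrl replicate 3 was lower than all others. The log2 fold change was 0.25 (SE 0.0779, adjusted p = 0.00568, edgeR quasi-likelihood test, Benjamini-Hochberg adjustment). The call rested on single libraries. It was lost without siCtrl replicate 3 (log2 fold change 0.17, edgeR Benjamini-Hochberg adjusted p = 0.0237), and without siDDX41 replicate 1, 3 or 5 (log2 fold changes 0.22, 0.25 and 0.24, edgeR adjusted p = 0.0200, 0.0121 and 0.0148). Over the 17 alternative fits the edgeR, DESeq2 and limma adjusted p ranged from 0.000398 to 0.0237.

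The remaining tested ligands had lower means in siDDX41. TNFSF13 encodes APRIL, a B cell factor, TNFSF4 encodes the OX40 ligand, and TNFSF12 encodes TWEAK, the ligand of Fn14 (TNFRSF12A). TNFSF13 had 15, 26, 24, 30 and 27 reads in the siCtrl libraries and 6, 10, 9, 12 and 6 in the siDDX41 libraries, and TNFSF4 had 20, 12, 28, 12 and 11 reads against 6, 8, 6, 4 and 9. The groups did not overlap in CPM for either gene. The filter on low counts required about 0.422 CPM in 5 libraries. TNFSF13 reached this in 5 siCtrl and 2 siDDX41 libraries, TNFSF4 in 5 and 0, and TNFSF12 in 4 and 1. Each thus passed mainly through siCtrl, the group in which it was high, so their shared direction is no result about ligands. With a filter of 1 CPM in 5 libraries TNFSF13 and TNFSF4 were not tested and 3 members were downregulated. Without a filter on low counts 5 members were downregulated, and which members these were is not given. TNFSF12, with 0.646 ± 0.278 and 0.384 ± 0.0720 CPM (SD, n = 5 each), was not called. It had 5 reads in siCtrl replicate 3 and 14 to 23 in the other siCtrl libraries. Without siCtrl replicate 3, 6 members were downregulated and TNFRSF21 was not called. Whether TNFSF12 was the member gained is not given. Of the exon bases of TNFSF13, 55.5% are shared with the readthrough gene TNFSF12-TNFSF13, and 13.7% of those of TNFSF12 with that gene or a gene of the opposite strand, and with the handling of ambiguous reads not described for the counting, the levels of all 3 are uncertain.

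TNFSF14, TNFSF13B, TNFSF10 (TRAIL), TNFSF18 and TNFSF8 had 15, 14, 11, 7 and 3 reads in all libraries together. TNFSF11 (RANKL) and, among receptors, TNFRSF13B had 0 reads. If their regions were counted in full, this allows up to 0.0127 CPM over the 10 libraries (3 reads, counting error only). For TNFSF11 the 1 protein-coding neighbour within 200 kb, FAM216B, was at 0 as well, and for TNFRSF13B 1 of 3, so whether these regions were counted in full was not tested. TNF, LTA and LTB were also listed at 0 in each library, but these values cannot be read as a measurement of expression. The 3 genes lie next to each other in the major histocompatibility region of chromosome 6, and 30 of the 34 protein-coding genes within 200 kb of TNF were listed at 0, among them CLIC1 and VARS1, against 14.02% of all protein-coding genes. Of the 4 others, PRRC2A had a mean count of 45.4 per library, DDAH2 15.3, BAG6 0.9 and CSNK2B 0.1, so the region was counted in part, and elsewhere in the region the tubulin gene TUBB and the ribosomal protein gene RPS18 were at 0. TNFRSF14 (HVEM), a receptor on chromosome 1, was listed at 0 with 4 of its 9 protein-coding neighbours (PANK4, HES5, PRXL2B and MMEL1). The cause was not tested, and no expression statement is made for TNF, LTA, LTB or TNFRSF14. The decoy receptor TNFRSF6B and the readthrough TNFSF12-TNFSF13 were listed at 0 as well, and all exon bases of each belong also to another gene.

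**Figure D2:**
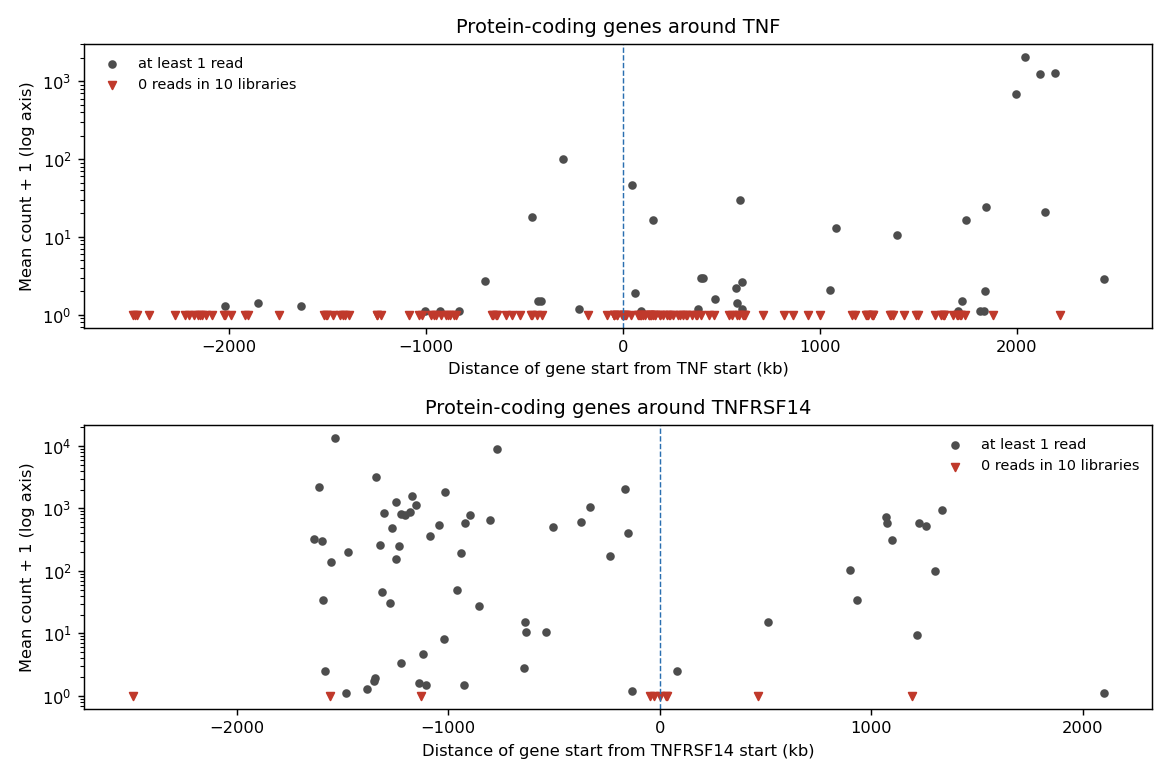
Each point is a protein-coding gene, placed by the distance of its start from that of TNF (top) or TNFRSF14 (bottom) in kb, with its mean count plus 1 over 10 libraries on a log axis. Around TNF 138 of the 179 genes shown are at 0 (triangles), and around TNFRSF14 10 of 76.

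Of the 5 members with a death domain, 4 were expressed. TNFRSF1A (ENSG00000067182.7, chr12:6328757-6342114, minus strand) encodes TNFR1, the main receptor of TNF. It was measured at 141, 146, 135, 142 and 145 CPM in siCtrl replicates 1 to 5 and at 197, 184, 188, 184 and 188 CPM in siDDX41 replicates 1 to 5. The groups did not overlap, and siDDX41 replicate 1 was the highest library. The rise from 142 ± 4.05 to 188 ± 5.27 CPM (SD, n = 5 each) was a log2 fold change of 0.41 (SE 0.0287, adjusted p = 1.89e-13, edgeR quasi-likelihood test, Benjamini-Hochberg adjustment). TNFRSF10B, a receptor of TRAIL known as DR5, had 121 ± 4.70 and 125 ± 2.14 CPM (SD, n = 5 each), with a log2 fold change of 0.048 (SE 0.0302) that was not called. TNFRSF21 (DR6) had a log2 fold change of -0.12 (SE 0.0434, adjusted p = 0.0127, edgeR quasi-likelihood test, Benjamini-Hochberg adjustment), just outside the threshold. It was called with total counts as scaling (-0.14, adjusted p = 0.00787), without siCtrl replicate 1 (-0.15, adjusted p = 0.00566) and without siCtrl replicate 2 (-0.15, adjusted p = 0.00354, all from edgeR with Benjamini-Hochberg adjustment), and the adjusted p over all 17 alternatives ranged from 0.00354 to 0.0477. TNFRSF25 (DR3) was not called, with 6.29 ± 0.831 and 5.69 ± 0.856 CPM (SD, n = 5 each). TNFRSF10A, the TRAIL receptor DR4, had 1 read in all libraries.

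**Figure D3:**
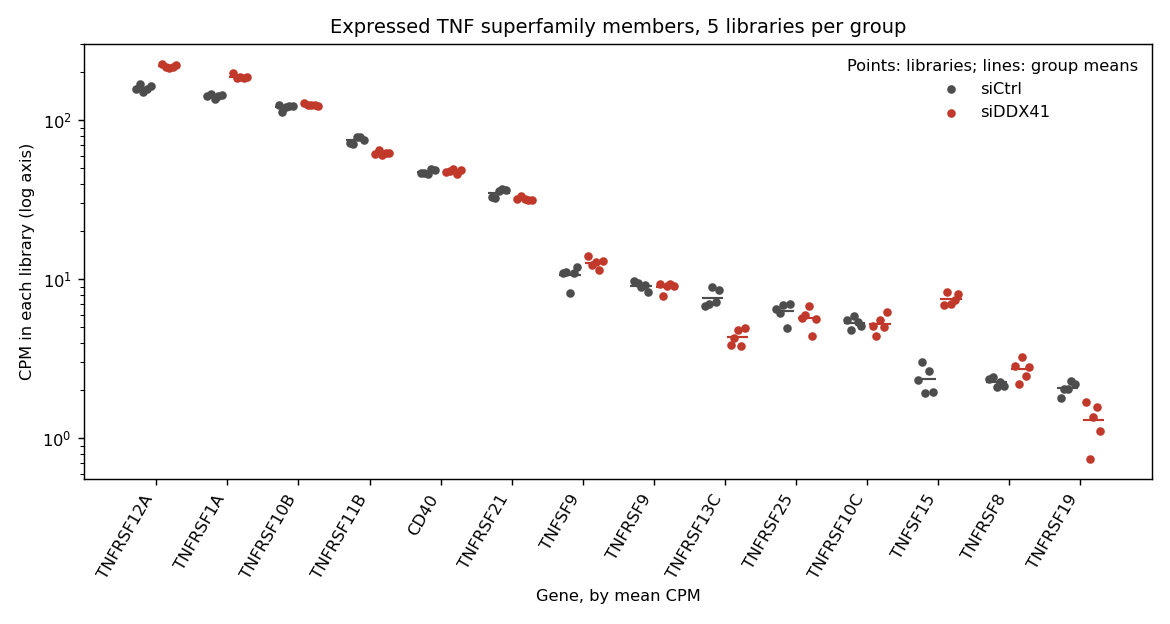
CPM in each library (log axis) is plotted for the 14 expressed members in order of their mean, with siCtrl in grey and siDDX41 in red (points, libraries, n = 5 per group, and lines, group means). The groups do not overlap for TNFRSF12A, TNFRSF1A, TNFRSF11B, TNFRSF13C, TNFSF15 and TNFRSF19. The share of all genes without overlap is not given, so this describes single genes and not the family.

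Among receptors that bind TRAF proteins, 6 of 14 were expressed, with TNFRSF14 among the 14 but not readable, and TNFRSF12A, TNFRSF13C and TNFRSF19 changed. TNFRSF12A (ENSG00000006327.13, chr16:3018445-3022383, plus strand) encodes Fn14, the receptor of TWEAK. Its level was 157, 169.5, 151, 157 and 165 CPM in siCtrl and 227, 216, 215, 216 and 222 CPM in siDDX41, in the order of replicates. All siDDX41 libraries were above all siCtrl libraries. TNFRSF12A rose from 159.9 ± 7.11 to 219 ± 5.24 CPM (SD, n = 5 each), with a log2 fold change of 0.45 (SE 0.0302, adjusted p = 5.47e-14, edgeR quasi-likelihood test, Benjamini-Hochberg adjustment). TNFRSF13C (ENSG00000159958.5, chr22:41922032-41926806, minus strand), which encodes the BAFF receptor known from B cells, was at 6.77, 6.97, 8.90, 7.18 and 8.53 CPM in siCtrl and at 3.86, 4.30, 4.83, 3.79 and 4.93 CPM in siDDX41. The highest siDDX41 library was below the lowest siCtrl library. Its log2 fold change was -0.82 (SE 0.0964, adjusted p = 1.15e-08, edgeR quasi-likelihood test, Benjamini-Hochberg adjustment). TNFRSF19 (ENSG00000127863.15, chr13:23570370-23676104, plus strand), which encodes the receptor TROY, was measured at 1.80, 2.04, 2.06, 2.31 and 2.21 CPM in siCtrl and 1.70, 0.738, 1.37, 1.57 and 1.11 CPM in siDDX41, and it was the expressed member nearest to the limit of 1 CPM, with a mean of 1.69, beside 0.692 for TNFSF13 just outside it. The groups did not overlap, and siDDX41 replicate 2 was lowest. Its log2 fold change was -0.68 (SE 0.165, adjusted p = 0.000571, edgeR quasi-likelihood test, Benjamini-Hochberg adjustment). CD40, TNFRSF9 (4-1BB) and TNFRSF8 (CD30) were not called, with log2 fold changes of 0.016 (SE 0.0362), -0.029 (SE 0.0691) and 0.27 (SE 0.123). TNFRSF1B (TNFR2), with 82 reads in all, was below the filter, and TNFRSF4, TNFRSF18 and CD27 had 9, 7 and 7 reads, TNFRSF11A (RANK) and TNFRSF17 1 read each.

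The decoy and soluble receptors differed in abundance. TNFRSF11B (ENSG00000164761.8, chr8:118923557-118951885, minus strand) was at 71.9, 70.7, 78.1, 78.7 and 74.6 CPM in siCtrl replicates 1 to 5 and at 61.8, 65.2, 60.6, 62.0 and 62.6 CPM in siDDX41 replicates 1 to 5. All siDDX41 libraries were below all siCtrl libraries. TNFRSF11B fell from 74.8 ± 3.57 to 62.4 ± 1.72 CPM (SD, n = 5 each), with a log2 fold change of -0.26 (SE 0.0354, adjusted p = 1.55e-07, edgeR quasi-likelihood test, Benjamini-Hochberg adjustment). The decoy TRAIL receptor TNFRSF10C had a log2 fold change of -0.021 (SE 0.0931) and was not called, and the decoy TNFRSF10D had 11 reads in all. TNFRSF10A to TNFRSF10D are similar in sequence and 33.0% of the exon bases of TNFRSF10C also belong to other annotated genes, so the reads of these receptors could be split differently by another counting. The share of TNFRSF10C and TNFRSF10D was taken in the summed level per length of TNFRSF10A to TNFRSF10D. It was 12.6, 12.1, 13.7, 12.5 and 12.04% in siCtrl replicates 1 to 5. In siDDX41 replicates 1 to 5 it was 11.4, 10.3, 12.7, 11.5 and 14.3%. The ranges overlapped, with siDDX41 replicate 5 highest and replicate 2 lowest, and the means were 12.6% ± 0.658 and 12.04% ± 1.52 (SD, n = 5 each). The difference of -0.54 percentage points became -0.10 without siDDX41 replicate 2 and -1.10 without siDDX41 replicate 5. The share was described without a test, and TNFRSF10B carried most of the summed level of TNFRSF10A to TNFRSF10D. TNFRSF11B, which is counted as a receptor of TRAIL in the pairs below, is not in this sum.

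Levels between genes were compared as CPM per kb of exon. TNFRSF12A was highest, at 88.8 ± 3.95 CPM per kb in siCtrl and 122 ± 2.91 in siDDX41 (SD, n = 5 each). TNFRSF1A followed with 33.7 ± 0.964 and 44.7 ± 1.25. TNFRSF11B was above TNFRSF10B in siCtrl (29.8 ± 1.42 against 24.1 ± 0.939), whereas their levels in siDDX41 did not differ beyond their spread (24.86 ± 0.686 against 24.96 ± 0.428). TNFRSF21, CD40 and TNFSF9 formed the next levels, between 6.53 and 9.74 CPM per kb in siCtrl. TNFSF15 was lowest of the 14 in siCtrl, at 0.305 ± 0.0596 CPM per kb, and at 0.966 ± 0.0846 in siDDX41 it was above TNFRSF8 and TNFRSF19. With the longest transcript as length, 8 of the 14 genes kept their place in the order of the mean over both groups, the first 4 among them. Levels of each group by that length are not given. The likeness of TNFRSF11B and TNFRSF10B in siDDX41 is thus shown for the length of all exons only.

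**Figure D4:**
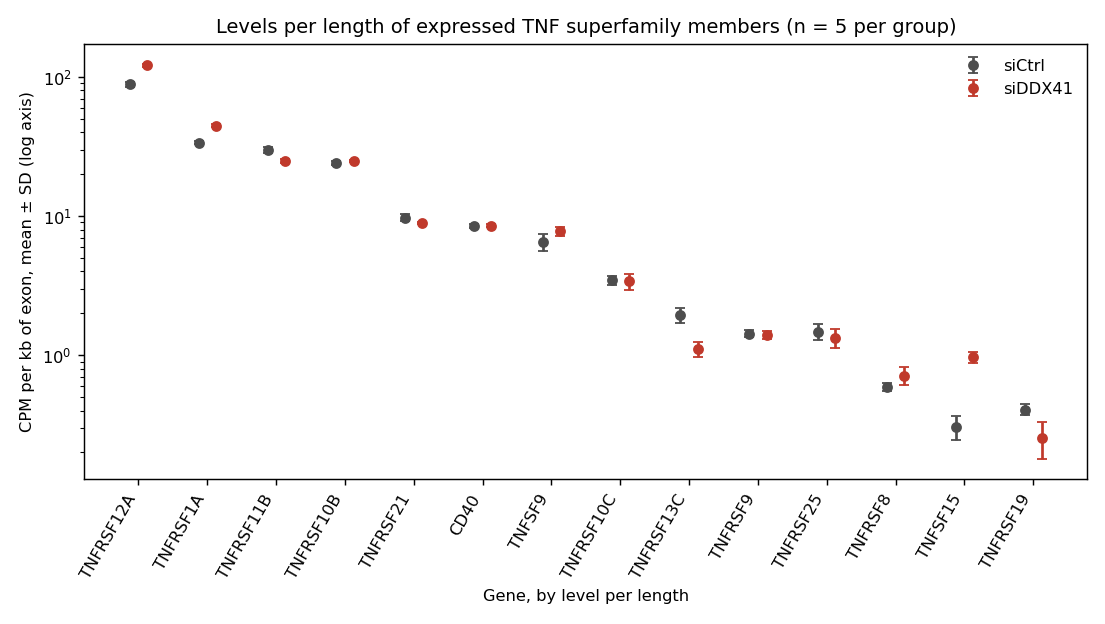
The level per length (CPM per kb of exon, log axis) is given for the 14 expressed members as mean ± SD of 5 libraries, siCtrl in grey and siDDX41 in red. TNFRSF12A is highest in both groups, at 88.8 and 122.

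Ligands and receptors were then set side by side. Of 33 ligand and receptor pairs, 9 involve TNF, LTA, LTB, TNFRSF14 or TNFRSF6B and were left out. In the other 24 pairs, both partners were expressed in 3 (TNFSF9 with TNFRSF9, TNFSF15 with TNFRSF25, and EDA with EDA2R). The receptor alone was expressed in 10, the ligand alone in 2 and neither in 9. These counts take TNFSF12, TNFSF13, CD27, TNFRSF10A, TNFRSF10D, TNFSF11, TNFRSF13B and CD40LG as not expressed, among others. The levels of TNFSF12, TNFSF13, CD27, TNFRSF10A and TNFRSF10D are uncertain, since they depend on how reads from shared or similar sequence were counted. TNFSF11, TNFRSF13B and CD40LG were listed at 0, and whether their regions were counted in full was not tested. For TRAIL, RANKL and BAFF (TNFSF13B) the receptors TNFRSF10B, TNFRSF11B and TNFRSF13C were expressed while the ligands had 11, 0 and 14 reads.

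Superfamily genes with other symbols were counted separately, and 7 of 10 were expressed. FAS and LTBR rose, NGFR, CD70 and EDA fell, and EDA2R and RELT were not called, counts near the 32.9% upregulated and 33.7% downregulated among genes with a mean of 1 or more CPM. NGFR (ENSG00000064300.8, chr17:49495293-49515008, plus strand), the p75 neurotrophin receptor, was at 29.3, 27.0, 29.5, 28.3 and 30.3 CPM in siCtrl and 7.67, 10.1, 7.49, 7.36 and 8.59 CPM in siDDX41. The groups were far apart, with siDDX41 replicate 2 highest in its group. The log2 fold change was -1.81 (SE 0.0653, adjusted p = 4.38e-20, edgeR quasi-likelihood test, Benjamini-Hochberg adjustment). CD70 (ENSG00000125726.10, chr19:6583183-6604103, minus strand), the ligand of CD27, was at 24.7, 25.6, 20.7, 24.5 and 25.3 CPM in siCtrl and 12.7, 11.8, 11.9, 13.4 and 11.8 CPM in siDDX41. The groups did not overlap, although siCtrl replicate 3 was low. Its log2 fold change was -0.97 (SE 0.0600, adjusted p = 9.21e-15, edgeR quasi-likelihood test, Benjamini-Hochberg adjustment), and it lies 47.3 kb from TNFSF9, which had a log2 fold change of 0.25. EDA (ectodysplasin A) fell from 9.45 ± 0.689 to 4.38 ± 0.930 CPM (SD, n = 5 each), with a log2 fold change of -1.11 (SE 0.0987, adjusted p = 9.60e-11, edgeR quasi-likelihood test, Benjamini-Hochberg adjustment). FAS, the receptor of the FAS ligand, rose from 30.6 ± 1.75 to 37.0 ± 0.856 CPM, with a log2 fold change of 0.27 (SE 0.0426), and LTBR, the lymphotoxin beta receptor, from 60.7 ± 2.38 to 70.0 ± 3.74 CPM (SD, n = 5 each), with 0.20 (SE 0.0378). Their adjusted p were 1.68e-06 and 2.04e-05 (edgeR quasi-likelihood test, Benjamini-Hochberg adjustment). For EDA, FAS and LTBR the groups did not overlap either. LTBR lies 32.9 kb from TNFRSF1A on chromosome 12, and CD27, 53.4 kb further, had 7 reads in all. Of the exon bases, 27.2% of NGFR, 19.0% of EDA and 44.7% of CD27 also belong to other annotated genes, which for NGFR and EDA lie on the opposite strand. The libraries were stranded, but whether the counting used the strand is not given.

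Of 40 receptor-proximal signaling genes, such as adaptors, ubiquitin ligases and sheddases, 39 were tested. All 39 had a mean of 1 or more CPM. Of these, 20 rose and 10 fell, beside 32.9% and 33.7% of all genes with a mean of 1 or more CPM. The median log2 fold change of the 39 genes was 0.14, against 0.0044 over that background. Their median absolute change was 0.32 against 0.26. The list was chosen with earlier results of these data known. BIRC3, which encodes the ubiquitin ligase cIAP2, was at 10.6, 9.54, 8.78, 8.63 and 10.5 CPM in siCtrl and 33.9, 33.5, 33.6, 32.9 and 29.3 CPM in siDDX41. The groups were far apart. Its log2 fold change was 1.76 (SE 0.0595, adjusted p = 6.64e-21, edgeR quasi-likelihood test, Benjamini-Hochberg adjustment). TRAF1, an adaptor that binds TRAF2, was at 1.71, 2.08, 2.10, 1.75 and 2.08 CPM and 4.83, 6.77, 5.92, 7.19 and 7.06 CPM, and its log2 fold change was 1.71 (SE 0.118, adjusted p = 1.30e-13, edgeR quasi-likelihood test, Benjamini-Hochberg adjustment). MAP3K14 (NIK, the kinase of the non-canonical pathway) had a log2 fold change of 0.79 (SE 0.0447), TNFAIP3 (A20, a deubiquitinase that limits NF-kB signaling) of 0.62 (SE 0.0654), and the sheddases ADAM17 and ADAM10 of 0.75 (SE 0.0286) and 0.58 (SE 0.0260). Their adjusted p were 1.29e-15, 1.20e-09, 1.12e-19 and 4.90e-18 (edgeR quasi-likelihood test, Benjamini-Hochberg adjustment). TNIP1, which binds A20, fell from 96.4 ± 4.29 to 41.1 ± 1.40 CPM (SD, n = 5 each), with a log2 fold change of -1.23 (SE 0.0365, adjusted p = 3.15e-22, edgeR quasi-likelihood test, Benjamini-Hochberg adjustment). TAB3 (a subunit of the TAK1 kinase complex), RIPK1 (a kinase of the TNFR1 complex) and TRAF4 fell with log2 fold changes of -0.99 (SE 0.0446), -0.60 (SE 0.0401) and -0.38 (SE 0.0321), with adjusted p = 3.86e-17, 7.09e-14 and 1.19e-11 (edgeR quasi-likelihood test, Benjamini-Hochberg adjustment). For these 10 signaling genes the groups did not overlap in CPM, but most of them were named for a small adjusted p. The share of all genes without overlap is not given, so this is no result about the list. Of the exon bases, 17.0% of TRAF4, 15.1% of MAP3K14 and 11.7% of ADAM17 also lie in genes of the opposite strand.

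**Figure D5:**
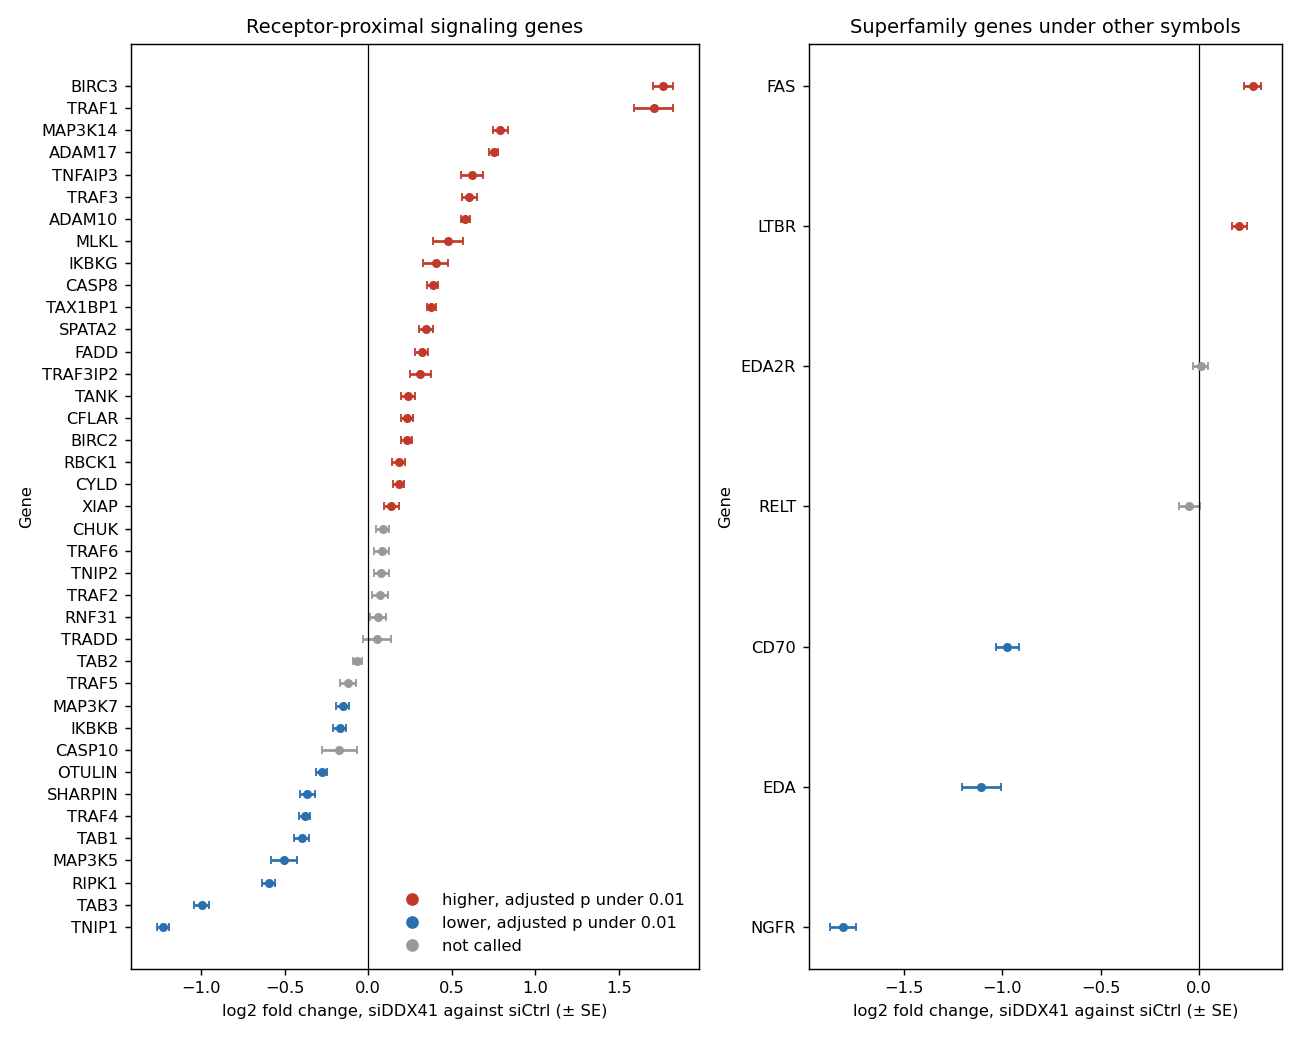
Log2 fold changes of siDDX41 against siCtrl (± SE, 5 libraries per group) are shown for the 39 tested receptor-proximal signaling genes (left) and the 7 tested superfamily genes under other symbols (right). BIRC3 lies at 1.76, TNIP1 at -1.23 and NGFR at -1.81.

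The labelled cell line was checked against markers. Of 9 mesenchymal and osteoblast lineage markers, 5 were expressed, with SPARC highest at 2990 CPM, and their summed level was 7028 to 7308 CPM in siCtrl and 7086 to 7486 CPM in siDDX41. Of these 5 genes, 1 was upregulated, 3 were downregulated and 1 was not called, beside 32.9% upregulated and 33.7% downregulated among genes with a mean of 1 or more CPM. The sums hide a higher mean of SPARC (2803 CPM in siCtrl and 3177 in siDDX41) beside lower means of VIM (2462 and 2318), COL1A1 (1873 and 1764), RUNX2 (32.4 and 24.6) and ALPL (5.01 and 3.08). TWIST1, SP7 and IBSP had 1, 4 and 1 reads in all. The summed level of 4 epithelial markers, 3 of them expressed and CLDN4 highest at 21.2 CPM, was 41.5, 44.9, 40.5, 43.5 and 45.8 CPM in siCtrl and 22.2, 24.8, 23.0, 21.79 and 23.3 CPM in siDDX41. The groups did not overlap. The lower sum came from CLDN4 (mean of 29.1 CPM in siCtrl and 13.3 in siDDX41) and KRT5 (5.24 and 0.488), whereas EPCAM (7.98 and 8.30) and CDH1 (0.873 and 0.927) were not lower, and of the 4 genes 2 were downregulated and 2 not called, beside 32.1% downregulated among all tested genes. The 4 endothelial markers, 2 of them expressed and VWF highest at 2.77 CPM, summed to 7.30, 7.09, 7.35, 7.44 and 6.95 CPM in siCtrl and 2.90, 4.30, 3.95, 3.40 and 3.45 CPM in siDDX41, again without overlap. All 4 had a lower mean in siDDX41. Of the 3 tested, 3 were downregulated, with a median log2 fold change of -0.99, beside 32.1% downregulated among all tested genes. CDH5, 1 of the 3, had a mean of 1.02 CPM in siCtrl and 0.355 in siDDX41. The filter required about 0.422 CPM in 5 libraries, so CDH5 may have passed through siCtrl, the group in which it was high. Neither list had a gene at 0, and the part of these markers in the changes of the superfamily was not tested.

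Promoter sequences are shown for the 3 expressed members with full statistics that had the largest changes among those in the RefSeq promoter table, as the windows from 250 to 51 bases before the RefSeq start (GRCh38.p14). The table held 25 of the 38 members, with 32 starts, and TNFRSF13C and TNFRSF12A were not among them. Capitals mark matches on either strand to the AP-1 motif TGANTCA, to the CCAAT box or to the TATA box motif TATAA.
TNFSF15, chr9:114792581-114792780, minus strand: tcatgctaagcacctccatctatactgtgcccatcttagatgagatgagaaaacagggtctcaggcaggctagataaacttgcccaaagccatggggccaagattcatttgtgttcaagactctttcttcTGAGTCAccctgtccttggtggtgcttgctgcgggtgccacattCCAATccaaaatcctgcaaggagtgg
TNFRSF19, chr13:23570162-23570361, plus strand: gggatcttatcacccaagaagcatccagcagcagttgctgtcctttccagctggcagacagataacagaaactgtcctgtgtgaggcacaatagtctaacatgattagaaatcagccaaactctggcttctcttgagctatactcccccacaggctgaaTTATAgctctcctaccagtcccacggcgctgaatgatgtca
TNFRSF1A, chr12:6342127-6342326, minus strand: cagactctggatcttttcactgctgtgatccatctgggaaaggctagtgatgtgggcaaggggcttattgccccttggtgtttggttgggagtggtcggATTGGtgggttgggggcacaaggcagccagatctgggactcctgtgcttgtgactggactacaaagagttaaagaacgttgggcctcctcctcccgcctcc
None of the windows overlaps an annotated exon of its gene. The TNFSF15 window lies within an intron of the longer GENCODE transcript, since the RefSeq start is 13.5 kb from the start of the gene there, and which start these cells use is not given by gene counts. For TNFRSF19, the first of 2 starts in the table is shown. The TNFSF15 window held TGANTCA and CCAAT, TNFRSF19 held TATAA on the other strand and TNFRSF1A held CCAAT on the other strand. Over all 35116 promoter windows of that length, TGANTCA occurred in 5.27%, CCAAT in 27.4%, TATAA in 14.4%, GGGCGG (GC box) in 35.0% and the NF-kB consensus in 7.98%. Of the 32 windows of members, 4 held TGANTCA, 8 CCAAT, 4 TATAA, 11 GGGCGG and 10 the NF-kB consensus. The 10 windows with the NF-kB consensus belong to TNFRSF14, TNFRSF9, LTA, LTB, TNFRSF19, TNFSF11, TNFSF13 and TNFSF14, and in the 9 windows of expressed members there were 2 of them. Windows of the same gene can overlap, as those of LTB and TNFSF14 do, so a site can be counted in more than 1 window. A match is a description of letters and not a site of binding.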

How the data were processed

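The read counts were deposited by the authors, who used bcl2fastq 2.19, STAR 2.7 (hg38, Gencode 25) and featureCounts 1.6. The library kit was stranded, but the sources used here do not give the strand setting of the counting or its handling of multimapping reads. Column 2 of each table was used. Gene ids without version were named with GENCODE 44, which matched 56948 of 63299 genes, and the unmatched genes held 0.0951 to 0.116% of the reads of a library. Genes were filtered with filterByExpr, scaled by TMM and tested for siDDX41 against siCtrl with the robust quasi-likelihood test of edgeR 4.0.16 (R 4.3.3), with Benjamini-Hochberg adjustment over all 16143 tested genes and a threshold of 0.01. SE is the absolute log2 fold change divided by the square root of F. CPM uses TMM-scaled library sizes. Replicate spread within groups exceeded counting error, with a chi-square per degree of freedom of 1.84 to 6.18 over the 20 pairs of libraries. Alternatives were DESeq2 1.42.0, DESeq2 size factors, total counts as scaling, limma 3.58.1 (voom), other filters, other thresholds, a replicate block and leaving out each library. Tables were made with Python 3.11.15, pandas 2.3.3 and scipy 1.17.1. The fits were tried on simulated counts first. Genes with full values were expressed members that were called without overlap of the groups, up to 12 by size of change, the member with the highest level per length of each role, DDX41, and up to 4 genes per direction by adjusted p in each other list, plus BIRC3, TRAF1, TNFAIP3, FAS and LTBR. Promoters were those of up to 3 of these members, not on chromosome 8. TNFSF13, TNFSF4, TNFSF12 and the genes listed at 0 or next to them were named after their values were seen. The leukocyte marker list and 1 gene near TNF are not reported here. Members and lists were chosen with earlier results of these data known.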

Additional observations from a re-analysis of the deposited data

Results flagged for a closer look

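In 5 of 60 groups of 5 libraries, taken over 30 genes (DDX41, the 14 expressed members and 15 genes with other symbols or signaling roles), a single library lay far from the others by Dixon's 95% limit. Chance alone does this in about 1 in 20 groups. TNFSF9 was 8.19 CPM in siCtrl replicate 3, against 10.9 to 12.02 in the other siCtrl libraries. CD70, which lies next to TNFSF9, was 20.7 CPM in the same library, against 24.5 to 25.6. TNFRSF21 was 33.4 CPM in siDDX41 replicate 2, against 31.6 to 32.1, and TNFRSF9 was 7.90 CPM in that library, against 9.02 to 9.36. BIRC3 was 29.3 CPM in siDDX41 replicate 5, against 32.9 to 33.9. What set these libraries apart was not tested.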

How the results depend on the processing

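The count of expressed members was 14, also with total counts as scaling, and 16 or 13 with a limit of 0.5 or 2 CPM. Of the 14, 10 had the same direction and the same side of the threshold in all 17 alternatives. The exceptions are TNFSF9 and TNFRSF21, whose values are given above, and TNFRSF9 and TNFRSF10C, which were not called and changed sign. Leaving out 1 library gave log2 fold changes of -0.062 to 0.015 for TNFRSF9, positive without siDDX41 replicate 2 (0.015), and of -0.088 to 0.038 for TNFRSF10C, positive without siCtrl replicate 3 (0.014) and without siDDX41 replicate 2 (0.038). The values of 2 other members that were not called were 0.024 (without siCtrl replicate 2) to 0.061 for TNFRSF10B and 0.0019 (without siCtrl replicate 3) to 0.030 for CD40. The cause was not tested.

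With an absolute log2 fold change over 0.5 required as well, 1 member was upregulated and 4 were downregulated. Among these 4 are TNFSF13 and TNFSF4, which passed the filter through the siCtrl libraries. Of the signaling genes 7 were upregulated and 4 downregulated, and among all genes 1584 were upregulated and 2534 downregulated. With a threshold of 0.05 on the adjusted p, 4 members were upregulated and 7 downregulated. With 1 CPM required in 5 libraries, 14269 genes were tested and 3 members were downregulated, since TNFSF13 and TNFSF4 were then not tested. With the longest transcript as length, 8 of 14 members had the same place in the order of levels.

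Leaving out each library in turn gave 3 to 4 members upregulated and 5 to 6 downregulated, and 19 to 21 signaling genes upregulated and 10 downregulated. With the replicate number as a block, 4 members were upregulated and 5 downregulated, with 20 and 10 signaling genes and a DDX41 log2 fold change of -1.99. The numbers give no pairing that the values show, with correlations of -0.078 to 0.060 between libraries of the same number. Neither other scaling moved the median log2 fold change of all genes by more than 0.013. With 5 libraries per group and 10 counts as the minimum, changes of members under about 0.422 CPM were not tested in the main fit. The fit without a filter on low counts and the DESeq2 fit covered 32705 genes. Each gave 4 members upregulated and 5 downregulated.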
